A study of Homo sapiens with 4 samples.

Results

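Mitochondrial ribosomal protein genes were taken from the deposited table by symbol, as every row named MRPL or MRPS followed by a number and, where present, a letter from A to C. This gave 76 of the table's 30863 genes, 47 named for the large subunit (MRPL) and 29 named for the small subunit (MRPS). They were measured by poly(A)-selected RNA sequencing in HepG2 cells, a long-established human liver tumour line that the labels class as hepatoblastoma, with a wild-type genotype. Cells were treated for 48 h with AMF (amentoflavone, a plant biflavonoid) or with DMSO, with 2 libraries a group. The treatment protocol gives 90 µM AMF whereas the series' design text gives 80 µM of Tub B. Compound and dose are therefore uncertain, and AMF here means the group whose sample names say so.

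Mitochondria hold their own ribosome, the mitoribosome, which translates the few messenger RNAs encoded by mitochondrial DNA, all of which code for subunits of the respiratory chain and the ATP synthase. Its ribosomal RNAs come from mitochondrial DNA, but all of its proteins are encoded in the nucleus, translated in the cytosol and imported. Some of these proteins have a counterpart in the bacterial ribosome, and others are found in mitochondria alone. In hepatocytes, as in other cells rich in mitochondria, loss of a mitoribosomal protein commonly lowers respiratory chain assembly, and inherited defects in several of these genes cause mitochondrial disease.

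Transcripts of the mitoribosome were more often higher than lower after AMF, by small amounts. Of the 76 genes, 28 rose, 1 fell and 47 did not pass an adjusted p of 0.05 (limma on log2 normalized counts, adjusted over all genes tested). The rises ran from 0.18 to 0.65 on the log2 scale, and MRPL55 alone changed by at least 1.5-fold. Over all 23828 genes tested, 31.8% were called, 15.6% higher and 16.2% lower in AMF. Among the 11137 genes averaging 100 normalized counts or more, a range that holds 74 of the 76 genes, 23.6% were called higher and 31.1% lower, beside 36.8% and 1.3% of the mitoribosomal genes. The median log2 change was 0.12 for the mitoribosomal genes, 0.04 for all genes tested and -0.04 for those averaging 100 or more. Leaving out either AMF library removed every call with limma-trend and most calls with voom on the recovered reads, over all genes as well. Without AMF replicate 1 or AMF replicate 2, the median log2 change was 0.13 and 0.13 for MRPL genes. For MRPS genes it was 0.09 and 0.11. Leaving out DMSO replicate 1 or DMSO replicate 2 left 16 and 10 rises with limma-trend, and 28 and 23 with voom.

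**Figure D1:**
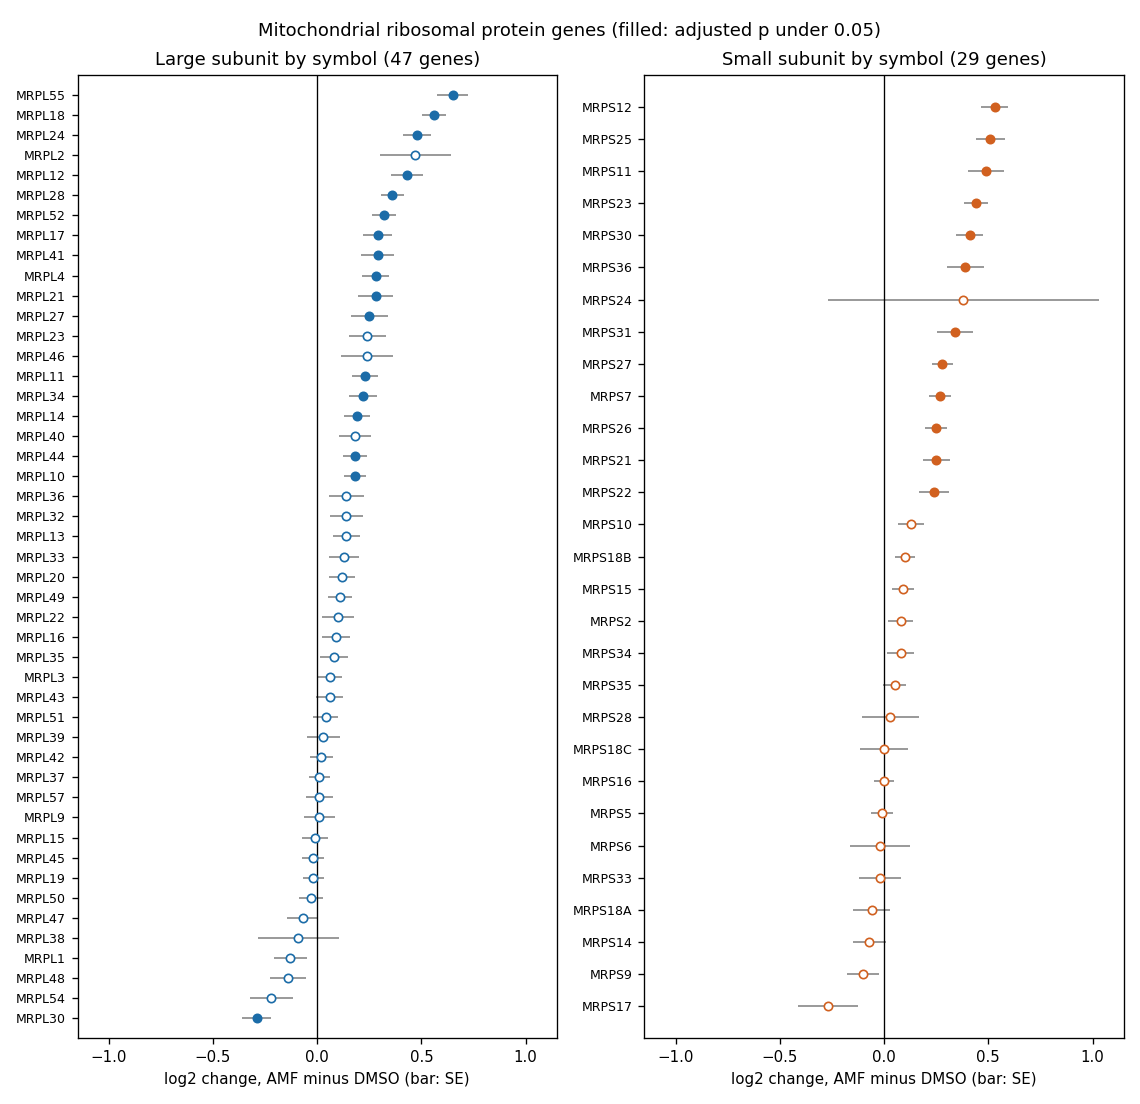
Log2 change of AMF against DMSO (x axis) for each of the 76 mitochondrial ribosomal protein genes, large subunit on the left and small subunit on the right by symbol. Points are estimates with SE bars, filled where the adjusted p is under 0.05. The filled points lie to the right of 0 in both panels except MRPL30, at -0.29.

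Promoter sequences (RefSeq, GRCh38.p14) were at hand for 67 of the 76 genes. They are shown for the largest rise and the only fall of the large subunit, for the largest rise of the small subunit, and for MRPS35, the most abundant gene with the letters ATGGCGG in the first 30 transcribed bases, which was chosen after the motif counts were seen. Each runs 5′ to 3′ on the gene's strand, from 250 bases before the start site to 30 after it, and the capitals mark letters of a motif that was searched. MRPL55 lies on the minus strand at chr1:228109270-228109549, MRPL30 on the plus strand at chr2:99180934-99181213, MRPS12 on the plus strand at chr19:38930694-38930973 and MRPS35 on the plus strand at chr12:27710582-27710861.
MRPL55: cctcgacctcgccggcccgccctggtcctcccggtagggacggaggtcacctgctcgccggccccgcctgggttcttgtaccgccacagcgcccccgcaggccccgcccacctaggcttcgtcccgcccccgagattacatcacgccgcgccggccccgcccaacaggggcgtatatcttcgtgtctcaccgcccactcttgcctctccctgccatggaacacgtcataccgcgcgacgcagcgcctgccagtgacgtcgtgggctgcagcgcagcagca
MRPL30: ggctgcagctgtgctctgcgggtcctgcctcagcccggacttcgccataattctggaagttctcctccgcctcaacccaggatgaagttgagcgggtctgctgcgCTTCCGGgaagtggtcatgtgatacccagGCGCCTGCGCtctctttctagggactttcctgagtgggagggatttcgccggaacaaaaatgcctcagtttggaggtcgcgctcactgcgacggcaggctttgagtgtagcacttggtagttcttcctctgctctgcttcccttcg
MRPS12: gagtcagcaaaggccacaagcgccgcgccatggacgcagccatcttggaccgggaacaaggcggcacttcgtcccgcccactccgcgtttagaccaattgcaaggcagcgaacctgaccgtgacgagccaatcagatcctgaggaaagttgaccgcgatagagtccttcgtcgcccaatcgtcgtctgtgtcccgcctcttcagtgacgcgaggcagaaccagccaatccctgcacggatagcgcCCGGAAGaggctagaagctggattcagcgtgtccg
MRPS35: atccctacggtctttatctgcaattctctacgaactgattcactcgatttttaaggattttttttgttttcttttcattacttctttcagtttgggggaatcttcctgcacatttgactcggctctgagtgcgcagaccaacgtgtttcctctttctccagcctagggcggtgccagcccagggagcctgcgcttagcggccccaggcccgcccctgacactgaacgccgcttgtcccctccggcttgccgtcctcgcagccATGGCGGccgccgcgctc
The 4 searched motifs were CCGGAAG (bound by ETS family factors), the NRF1 consensus motif, ATGGCGG (YY1) and CACGTG (the E-box), on both strands. MRPL55 held none of the 4 in this window. In MRPL30 the capitals mark the ETS and NRF1 motifs, both as reverse complements, starting at positions -145 and -116 relative to the start site. In MRPS12 they mark CCGGAAG from position -5, and in MRPS35 they mark ATGGCGG from base 13 after it.

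Searched over 300 bases a gene, ETS letters were in 40.3% of the 67 mitoribosomal promoters and in 14.2% of 15843 protein-coding promoters (10.7% of all 27305 promoters). YY1 letters were in 34.3% of the mitoribosomal promoters, 7.6% of protein-coding promoters and 5.7% of all promoters. NRF1 letters were in 11.9%, against 8.6% of protein-coding and 6.3% of all promoters, and E-box letters in 9.0%, against 8.9% and 7.4%. These backgrounds take genes at any level. Among other protein-coding genes averaging 100 or more, 1682 held the ETS letters and 6455 did not, and 908 and 7229 the YY1 letters. For NRF1 it was 1042 and 7095, beside 8 and 59 mitoribosomal genes, and for the E-box 870 and 7267, beside 6 and 61. Neither was more frequent in mitoribosomal genes by that measure. Median GC content was 60.3% in the mitoribosomal promoters, against 62.7% in protein-coding promoters.

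The YY1 letters were unevenly spread over genes that rose and genes that did not. They stood in 2 of the 25 promoters of genes that rose, MRPL52 and MRPS30, and in 21 of the 41 promoters of genes that did not pass. The 23 genes with the letters had a median log2 change of 0.05, and 2 rose, 0 fell and 21 did not pass. The 44 genes without them had a median of 0.18, and 23 rose, 1 fell and 20 did not pass. This split was chosen after the shares were seen and carries no test. In other protein-coding genes averaging 100 or more, 16.3% of the 908 with the letters and 24.2% of the 7229 without were called higher, with median changes of -0.09 and -0.04. For the ETS letters, the median change was 0.09 in the 27 mitoribosomal genes with them and 0.12 in the 40 without.

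Most of the YY1 matches lay just after the start site. Of 24 matches, 19 began 10 to 39 bases after it, and 18 of those read ATGGCGG on the gene's own strand. The letters also spell a start codon followed by an alanine codon, and 15 of the 24 matches began at an annotated start codon of the gene in GENCODE 29, MRPS35 and MRPS30 among them. A match at a start codon and a match to a factor's motif cannot be told apart by these letters. Positions of the letters were not counted in promoters of other genes, so they mark no trait of the family.

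**Figure D2:**
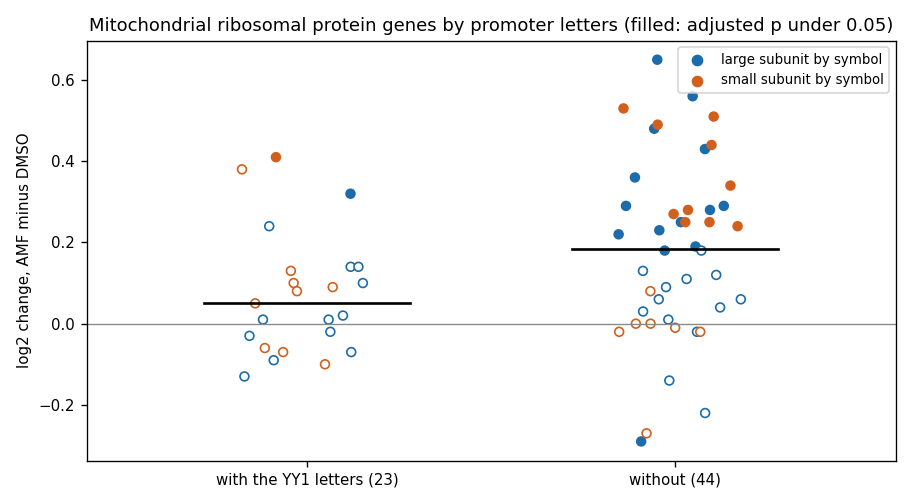
Log2 change of AMF against DMSO (y axis) for mitochondrial ribosomal protein genes with the letters ATGGCGG in the 300-base promoter window (23 genes) and without them (44 genes), coloured by subunit. Filled points passed an adjusted p of 0.05 and lines are medians, at 0.05 and 0.18. Among the genes with the letters, MRPL52 and MRPS30 are filled.

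Among large-subunit genes with a bacterial counterpart, MRPL55 changed by most. MRPL55, the mitochondrial form of bacterial L31, had 966 and 951 normalized counts in AMF replicates 1 and 2, against 635 and 590 in DMSO replicates 1 and 2. Both AMF libraries lay far above both DMSO libraries, and the log2 change was 0.65 (SE 0.0736, limma adjusted p = 8.76e-06). MRPL18, a protein of the central protuberance of the large subunit, had 2366.9 and 2498.1 in AMF, against 1677.4 and 1624.2 in DMSO, higher by 0.56 on the log2 scale (SE 0.0557, limma adjusted p = 2.42e-06). With MRPS12, it was called with voom whichever library was left out. MRPL24, a protein near the exit of the peptide tunnel, had 1106.8 and 1135.2 in AMF, against 794 and 809 in DMSO (log2 change 0.48, SE 0.0664, limma adjusted p = 5.09e-05). The groups of MRPL18 and MRPL24 did not overlap.

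MRPL12, which forms the flexible stalk that recruits translation factors and has been reported to bind the mitochondrial RNA polymerase, had 782 and 743 normalized counts in AMF, against 569 and 566 in DMSO. Both AMF libraries were higher, by 0.43 on the log2 scale (SE 0.0760, limma adjusted p = 5.14e-04). In GENCODE 29, 68.2% of the exon bases of MRPL12 are shared with another annotated gene on the same strand, so its count depends on how such reads were assigned. MRPL28, the form of bacterial L28, had 2561 and 2441.5 in AMF, against 1997.3 and 1894.2 in DMSO (0.36, SE 0.0552, limma adjusted p = 1.31e-04). MRPL52, found in mitochondrial ribosomes and without a bacterial counterpart, had 1543.3 and 1570 in AMF, against 1247.5 and 1241.2 in DMSO (0.32, SE 0.0587, limma adjusted p = 6.01e-04). In each of these 3 genes the lowest AMF value stood above the highest DMSO value.

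MRPL30, the form of bacterial L30, was the sole gene of the 76 to fall. It had 1302.8 and 1461.8 normalized counts in AMF, against 1613.4 and 1755.6 in DMSO, which put the log2 change at -0.29 with an SE of 0.0691 (limma adjusted p = 0.00505). The groups did not overlap, but the gap between libraries of the same group reached 0.17 on the log2 scale, and the change ran from -0.37 to -0.20 when each library was left out. The call ended with limma-trend when any of the 4 libraries was left out. Neighbouring genes share 19.5% of its exon bases.

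Of the small subunit, MRPS12 changed by most. MRPS12, the counterpart of bacterial S12 at the decoding centre, had 1300.9 and 1241.3 normalized counts in AMF, against 888 and 870 in DMSO. The libraries of each group lay close together and the log2 change was 0.53 (SE 0.0651, limma adjusted p = 1.73e-05). The library kit did not keep strand, so reads from overlapping genes on opposite strands cannot be told apart. SARS2, which encodes the mitochondrial seryl-tRNA synthetase and shares 16.3% of the exon bases of MRPS12 on the opposite strand, had 54.8 and 43.3 in AMF, against 45 and 47.2 in DMSO (adjusted p = 0.854). MRPS11, the counterpart of bacterial S11, had 553 and 602 in AMF, against 402 and 422 in DMSO (0.49, SE 0.0876, limma adjusted p = 5.56e-04).

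Proteins of the small subunit without a bacterial counterpart included MRPS25 and MRPS23. MRPS25 had 1708.6 and 1523.6 normalized counts in AMF, against 1164.6 and 1107.8 in DMSO (log2 change 0.51, SE 0.0682, limma adjusted p = 4.28e-05). Its AMF libraries differed by 0.17 on the log2 scale, and the change was 0.42 to 0.59 when each library was left out. NR2C2, a nuclear receptor gene that shares 22.2% of the exon bases of MRPS25 on the opposite strand, was lower in AMF (-0.31, limma adjusted p = 7.69e-04), opposite in direction to MRPS25. MRPS23 had 2318.6 and 2466.2 in AMF, against 1809.3 and 1725.8 in DMSO (0.44, SE 0.0567, limma adjusted p = 3.08e-05). MRPS27, a pentatricopeptide repeat protein and 1 of the 3 genes of the 76 with the highest mean counts, had 3562 and 3587 in AMF, against 3022.9 and 2878.8 in DMSO (0.28, SE 0.049, limma adjusted p = 4.75e-04). The groups overlapped in none of MRPS25, MRPS23 and MRPS27.

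3 genes carry small-subunit names although their products do not sit in the small subunit of the human mitoribosome. MRPS30 is a protein of the large subunit, and it had 1513.6 and 1637.9 normalized counts in AMF, against 1206.5 and 1169.4 in DMSO (log2 change 0.41, SE 0.0632, limma adjusted p = 1.57e-04). MRPS18A, also a protein of the large subunit, had 541 and 492 in AMF, against 563 and 511 in DMSO (-0.06, limma adjusted p = 0.697), and its groups overlapped. MRPS36, now known as a subunit that links the oxoglutarate dehydrogenase complex together, had 526 and 590 in AMF, against 420 and 427 in DMSO (0.39, SE 0.0895, limma adjusted p = 0.00326).

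**Figure D3:**
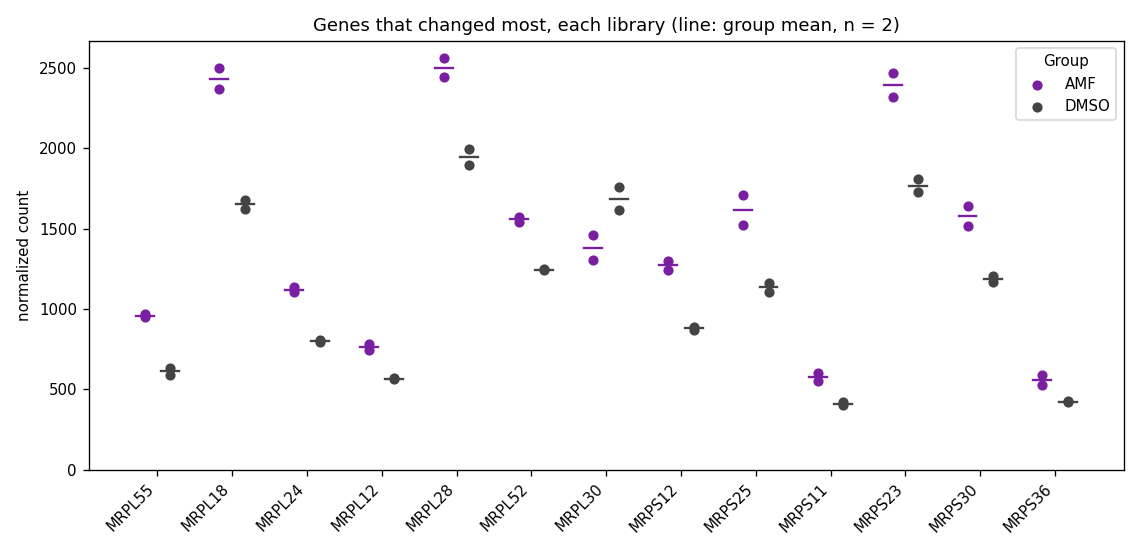
Normalized counts (y axis) of the 13 genes with the largest called changes in each subunit by symbol, AMF left and DMSO right for each gene, one point per library with the group mean as a line (n = 2). Both AMF points lie above both DMSO points except in MRPL30, where they lie below.

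Several transcripts, among them 2 of the 3 with the highest means, did not change detectably. MRPS16, the form of bacterial S16 and the gene of the 76 with the highest mean, had 3943.6 and 3785.8 normalized counts in AMF, against 3875.5 and 3829.5 in DMSO, which put the log2 change at 0.00 with an SE of 0.0469 (limma adjusted p = 0.961). DNAJC9, which shares 14.9% of the exon bases of MRPS16 on the same strand, was lower in AMF (-0.83, limma adjusted p = 3.76e-06). MRPL37 had 2928.7 and 3076 in AMF, against 2950.9 and 3018.4 in DMSO (0.01, SE 0.0502, limma adjusted p = 0.923). MRPL45, which ties the large subunit to the inner membrane, had 2587 and 2686.6 in AMF, against 2626 and 2736.1 in DMSO (-0.02, SE 0.0516, limma adjusted p = 0.772). MRPL57, close to the median level of the 76 genes, had 1071.6 and 1055.9 in AMF, against 1057.6 and 1051.3 in DMSO (0.01, SE 0.0637, limma adjusted p = 0.908). The groups overlapped in MRPS16, MRPL37, MRPL45 and MRPL57. In simulated data for this comparison, 74.6% of genes changed 1.5-fold were recovered. Those genes were drawn from all averaging 10 or more, so the share sets no detection limit for the genes above. Among the 76, rises from 0.18 on the log2 scale were called, and small changes could still be missed.

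Over the 47 genes that did not pass, log2 changes ran from -0.27 to 0.47. Both AMF libraries lay above both DMSO libraries in 17 of them and below in 8, and the groups overlapped in 22. Counting all 76 genes, AMF lay above DMSO in 45 (59.2%) and below in 9 (11.8%), beside 33.8% and 29.7% of all genes tested and 35.4% and 44.6% of genes averaging 100 or more. Named here, like the other genes of this paragraph, after their values were seen, MRPL2 (126 and 144 in AMF, against 89 and 107 in DMSO; log2 change 0.47, limma adjusted p = 0.0512) and MRPL23 (0.24, limma adjusted p = 0.0538) lay just outside the threshold. MRPS17 (-0.27, limma adjusted p = 0.192) and MRPL54 (-0.22, limma adjusted p = 0.123) were the lowest of those that did not pass. MRPS24 had 5 and 5 reads in AMF, against 3 and 4 in DMSO, and the annotation holds a readthrough gene that shares 23.2% of its exon bases.

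Levels differed widely between the genes. Per kilobase of exon in GENCODE 29, the mean normalized count ran from 1.87 for MRPS24 to 2380 for MRPS26 in AMF, with a median of 453, and from 1.36 for MRPS24 to 2000 for MRPS26 in DMSO, with a median of 402. After MRPS24, the lowest levels per kilobase were those of MRPL38 (25.7 in AMF and 27.9 in DMSO) and MRPL46 (33.1 in AMF and 28 in DMSO). MRPL14 (1980 in AMF and 1740 in DMSO) and MRPL18 (1770 in AMF and 1200 in DMSO) followed MRPS26 at the top in AMF. In DMSO, MRPL14 again came next, but MRPL45 (1570), MRPS16 (1380), MRPS18B (1380) and MRPS34 (1230) stood above MRPL18. These levels take all annotated exons as the length and rest on an annotation that may differ from the one used for counting. Across the 76 genes, the log2 mean count and the log2 change had a Pearson r of 0.01, as a description over genes that share the same 4 libraries.

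Large and small subunit were set against each other because both are needed for a working mitoribosome. Of the 47 MRPL genes, 16 rose, 1 fell and 30 did not pass, and of the 29 MRPS genes, 12 rose, 0 fell and 17 did not pass. That is 34% of large-subunit and 41.4% of small-subunit genes called higher, beside 23.6% of all genes averaging 100 or more. At an unadjusted p under 0.05, limma and voom each put 0 MRPS genes lower. Median log2 changes were 0.13 for the large and 0.10 for the small subunit, and their difference, large minus small, was 0.02 before rounding of the medians. It was -0.02 without DMSO replicate 1 and -0.01 without DMSO replicate 2, so its sign rested on these libraries. Summed normalized counts were 57836 and 58118 in AMF, against 53267 and 52389 in DMSO, for the large subunit, a ratio of 1.097. For the small subunit they were 39477 and 39585 in AMF, against 35463 and 34439 in DMSO, a ratio of 1.131. All 76 genes together took 0.389% and 0.391% of reads in AMF, against 0.348% and 0.344% in DMSO. The genes are not replicates of a condition, so the contrast between subunits carries no test. Without AMF replicate 1 or 2, limma-trend called 0 rises in both subunits, and voom called 2 and 2 in the large and 3 and 2 in the small subunit. Without DMSO replicate 1 or 2, limma-trend called 9 and 6 in the large and 7 and 4 in the small subunit.

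**Figure D4:**
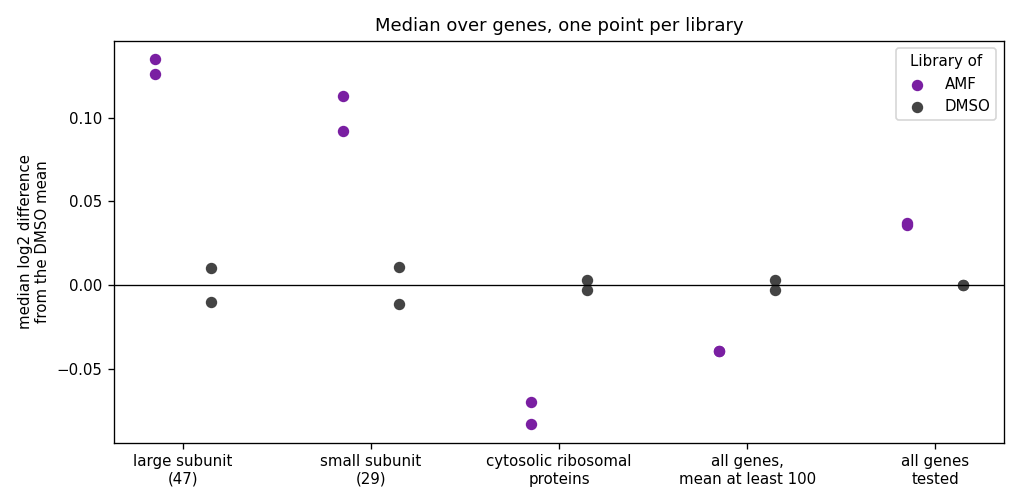
Median over genes of the log2 difference from the DMSO mean (y axis), one point per library, for the large and small subunit by symbol, cytosolic ribosomal proteins and all genes tested with and without a minimum mean of 100. The DMSO points lie around 0 by construction, and the AMF points of the subunits lie at 0.135 and 0.126 (large) and 0.113 and 0.092 (small).

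Placed by position in the human structure, the large subunit held 49 of the genes, with 17 rises and 1 fall, and the small subunit 26, with 10 rises and 0 falls. In the large subunit, 13 of 30 genes with a bacterial counterpart rose (median log2 change 0.16), and 4 of 19 mitochondria-specific genes rose (median 0.03). In the small subunit, 4 of 16 genes with a bacterial counterpart rose (median 0.06), and 6 of 10 mitochondria-specific genes rose (median 0.25). Over both subunits, 17 of 46 genes with a counterpart (median 0.14) and 10 of 29 mitochondria-specific genes (median 0.08) rose. Of genes averaging 100 or more, 23.6% rose, which is near the 21.1% of mitochondria-specific genes of the large subunit and the 25% of small-subunit genes with a counterpart. The other classes had 43.3% (large, with a counterpart) and 60.0% (small, mitochondria-specific). The classes follow the structural name of each protein. By it MRPS18A and MRPS18B were counted as mitochondria-specific, although they share a gene name with MRPS18C, which was counted with a bacterial counterpart. These counts are a description, depend on that classing and were not tested.

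**Figure D5:**
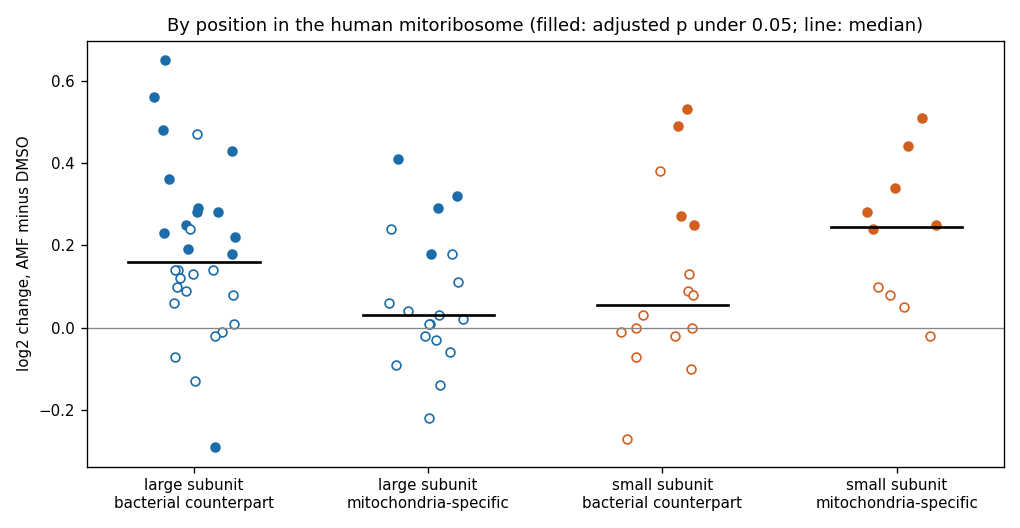
Log2 change of AMF against DMSO (y axis) for genes grouped by position in the human mitoribosome and by class. The class, with a bacterial counterpart or mitochondria-specific, follows the structural name of the protein. Filled points passed an adjusted p of 0.05 and lines are medians, at 0.16 and 0.03 in the large subunit and at 0.06 and 0.25 in the small subunit.

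Of 6 further mitoribosomal proteins that go by other names, 4 rose and 2 did not pass, with a median log2 change of 0.19, where 23.6% of genes averaging 100 or more and 15.6% of all genes were called higher. DAP3, a GTP-binding protein of the small subunit, had 2893.4 and 2973 normalized counts in AMF, against 2471.1 and 2537.9 in DMSO (log2 change 0.23, limma adjusted p = 0.00264). AURKAIP1, also of the small subunit, had 3943.6 and 3842.5 in AMF, against 3419.7 and 3163.2 in DMSO (0.24, limma adjusted p = 0.00194). CHCHD1 of the small subunit (0.19, limma adjusted p = 0.041) and ICT1, a peptidyl-tRNA hydrolase built into the large subunit (0.19, limma adjusted p = 0.0489), rose by less, and both calls ended with a pseudocount of 0.1 (0.0547 and 0.0573). PTCD3, a pentatricopeptide repeat protein of the small subunit, had 4137.7 and 4260.7 in AMF, against 4084.5 and 4108.7 in DMSO (0.04, limma adjusted p = 0.611). GADD45GIP1, at the tunnel exit of the large subunit, had 1396.6 and 1469 in AMF, against 1584.4 and 1566.7 in DMSO (-0.14, limma adjusted p = 0.0958).

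Of 29 genes listed for mitoribosome assembly or maturation of its RNA, 8 rose, 3 fell and 18 did not pass, with a median log2 change of 0.06. The list also holds the mitochondrial proteases LONP1, CLPP, AFG3L2 and SPG7, of which SPG7 alone rose (0.30, limma adjusted p = 6.7e-04). The 27.6% that rose was near the 23.6% of genes averaging 100 or more, and 10.3% fell, beside 31.1%. TFB1M, which dimethylates the small-subunit RNA, had 2462.5 and 2240.6 normalized counts in AMF, against 1407.5 and 1540 in DMSO, which put the log2 change at 0.67 with an SE of 0.0647 (limma adjusted p = 1.68e-06). MPV17L2, an inner membrane protein needed for assembly, had 423 and 514 in AMF, against 310 and 305 in DMSO (0.60, limma adjusted p = 4.87e-04). MTERF4, which brings an RNA methyltransferase to the large subunit, had 609 and 551 in AMF, against 805 and 783 in DMSO (-0.45, limma adjusted p = 4.16e-04), with 51.0% of its exon bases shared with a gene on the opposite strand. RPUSD4, a pseudouridine synthase for the large-subunit RNA, fell as well (-0.27, limma adjusted p = 0.00451).

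Of 16 genes listed for mitochondrial translation, 7 rose (43.8%), 0 fell and 9 did not pass, with a median log2 change of 0.20. Among genes averaging 100 or more, 23.6% were called higher and 31.1% lower. The list reaches beyond translation factors, to OXA1L, PDF and LETM1, and LETM1 (0.36, limma adjusted p = 4.87e-05) was among the rises. GFM2, which recycles mitoribosomes after termination, had 1224.8 and 1332 normalized counts in AMF, against 913 and 875 in DMSO (0.52, limma adjusted p = 3.76e-05). TACO1, an activator of translation of the cytochrome oxidase subunit 1 message, had 1447.6 and 1560.7 in AMF, against 1004.6 and 1088.3 in DMSO (0.52, limma adjusted p = 2.81e-05). Of 17 genes of mitochondrial transcription and RNA handling, 11 rose (64.7%), 1 fell (5.9%) and 5 did not pass, with a median of 0.22, beside the same shares. The RNA helicase SUPV3L1 (0.45, limma adjusted p = 4.87e-05) and the RNA-binding protein SLIRP (0.35, limma adjusted p = 0.00166) rose by most. TFAM, which packages mitochondrial DNA and starts its transcription, had 2754.1 and 2808.2 in AMF, against 3568.7 and 3560.5 in DMSO, which put the log2 change at -0.36 with an SE of 0.0478 (limma adjusted p = 3.92e-05).

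Cytosolic ribosomal protein genes, which build the ribosome outside mitochondria, were set beside them. Of 85 tested, 7 rose, 31 fell and 47 did not pass, with a median log2 change of -0.07. The share that fell, 36.5%, was near the 31.1% of genes averaging 100 or more, and the share that rose was 8.2%, beside 23.6%. Both AMF libraries lay below both DMSO libraries in 65.9% of them, beside 44.6% of genes averaging 100 or more. The difference between both families was not tested. These list counts come from the same fit over 4 libraries, in which leaving out either AMF library left 0 calls over all genes with limma-trend (6575 and 6387 at an unadjusted p under 0.05) and 1379 and 1315 with voom. Mitochondrially encoded genes, taken as every row whose name begins with MT- whatever its product, took 9.53% and 9.61% of reads in AMF, against 7.73% and 7.69% in DMSO. The share of the messages that the mitoribosome translates was not counted apart.

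Totals per library ran from 24226586 to 26966210 reads, and the median of the 76 genes' means was 1062.2 normalized counts. Between libraries of the same group, the median gap over the 76 genes was 0.04 in AMF and 0.07 in DMSO on the log2 scale. In 49 of the 76 the change exceeded the larger gap of the gene's own groups. That count was not made over all genes, so it marks no trait of the family. All 10 hepatocyte markers had reads in every library, with sums of 399461 and 379211 normalized counts in AMF, against 528991 and 510149 in DMSO. APOB was the highest of them, at 135000 and 134000 in AMF, against 208000 and 211000 in DMSO. The sums therefore do not describe each marker. Of 12 markers of blood, endothelial, stromal and macrophage cells, 9 had a row and 1 or 2 of them were at 0 in each library (CD3E, COL1A2 or LRAT). They summed to 1596 and 1634 in AMF, against 1277 and 1259 in DMSO, mostly ACTA2, and their part in the results was not tested. In bulk RNA, fewer cells of a type and less RNA per cell cannot be told apart. Nothing in the labels says that replicates were separate cultures, so each p-value reflects only how far these 4 libraries spread, and that spread may be technical.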

How the data were processed

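Poly(A)-selected, non-directional RNA-seq libraries of HepG2 cells, 2 with AMF and 2 with DMSO, were grouped by their sample labels. The submitters' processing notes name STAR 2.7.0, featureCounts and hg19. The deposited values are log2-scale variance-stabilized values with a lowest value of 6.01, a form worked out from the values because no step is stated. Inverting that scale gave normalized counts and whole reads (100% of values within 0.01 reads), with totals of 24226586 to 26966210 and size factors of 0.9707 to 1.0769. 0 columns belonged to other samples. A normalized count of 1 was worth about 1 read.

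Genes averaging 1 normalized count or more (23828) were tested with limma 3.58.1 (trend, two-sided) in R 4.3.3 on log2(normalized count + 1). Fold changes are on that scale, which understates those of low genes, and calls use a Benjamini-Hochberg adjusted p of 0.05. No count model was the main test, since the deposited unit is log2, and voom on recovered reads was an alternative. In simulated data with 23772 genes, limma-trend recovered 74.6% of 1.5-fold and 92.5% of 2-fold changes, with 1 false call. Only 67 genes were changed at each of these folds, and every gene had the same dispersion (0.00145), taken from these libraries. In the data 7578 genes were called, so the simulation gives no rate of false calls for them.

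Named genes were the 6 largest called rises and falls of each subunit, the 3 highest means, a fixed set of genes whose subunit or name is irregular, and the largest called changes of each related list. Exceptions chosen after values were seen are marked in the text. Members and lists were chosen with earlier results of these data known. Replicate numbers are shared by both groups, but replicate differences correlated by 0.014 over 15845 genes in 2 pairs, so the numbers were not taken as pairs. Exon overlaps and lengths come from GENCODE 29 and promoters from RefSeq (GRCh38.p14), whose builds differ from hg19, so neither gave coordinates to the reads. Settings changed were the pseudocount, filter, scaling, threshold, test, replicate block, subunit definition and each library left out.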

Additional observations from a re-analysis of the deposited data

How the results depend on the processing

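All 29 called mitoribosomal genes kept their direction under each of the 15 other settings, but the number called depended on the libraries. Leaving out 1 library at a time gave 0 to 16 rises with limma-trend (0 to 9 in the large and 0 to 7 in the small subunit). With voom it gave 4 to 28 rises, and the AMF libraries decided the low end (4 and 5 in all, 2 and 2 in the large and 3 and 2 in the small subunit). MRPL30 was not called (0) without any single library by limma-trend, nor by voom without either AMF library. Over all genes, limma-trend gave 0 to 1753 rises and 0 to 1780 falls, and voom without AMF replicates gave 667 and 636 rises with 712 and 679 falls. A lone library is assumed to vary like the other group. The prior degrees of freedom were 11.912 with all libraries and 0.995 and 1.003 without an AMF library. With all libraries, the other settings gave 26 to 31 rises, and an adjusted p of 0.01 gave 19, of which 8 were in the large subunit.

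The large-subunit median was 0.11 on the deposited log2 values, 0.15 with library totals and 0.09 to 0.16 with a library left out. The small-subunit median was 0.08, 0.12 and 0.09 to 0.18. Library totals moved the median of all genes to 0.06. Large minus small was 0.03 with a minimum mean of 10 and by structure, 0.04 for genes averaging 100 or more, and -0.02 to 0.03 with a library left out (-0.02 and -0.01 without DMSO replicates 1 and 2). The sign turned with some library left out in 18 of the 47 genes that did not pass, with wide ranges for MRPL38 (-0.33 to 0.14), MRPS6 (-0.25 to 0.21) and MRPS28 (-0.18 to 0.24), chosen after their values were seen. Among the genes named by rule these were MRPS16 (range -0.03 to 0.03, turned values up to -0.0031), MRPL37 (-0.03 to 0.04, turned values up to -0.0081 and, with voom, -0.0096), MRPL45 (-0.05 to 0.01, turned values 0.0033, 0.0035, 0.0045 and 0.0057) and MRPS18A (-0.12 to 0.02). The cause was not tested.

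With the replicate number as a block, 31 mitoribosomal genes rose (19 in the large and 12 in the small subunit) and 8157 genes were called in all. The numbers mark no stated pairing, and no named call changed under the block. At this depth, genes near the low end such as MRPS24 carry too few reads to show a change of this size.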

Other observations

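Reads on annotated pseudogenes bear on a few of the genes. MRPS31, which rose, had 1918 reads on the gene row summed over the libraries, beside 323 on 3 pseudogene rows. MRPS17, which did not pass, had 678 reads on the gene row and 22 on pseudogene rows. Of the 76 genes, 40 share exon bases with another annotated gene and 13 share over 20% of them, and 3 of those 13 rose. Over all 76 genes 36.8% rose, beside 23.6% of genes averaging 100 or more.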
